A study of Rattus norvegicus with 16 samples.

Results

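Mast cells are tissue-resident immune cells that store histamine, proteoglycans and proteases in granules and release them when IgE bound to their high-affinity receptor is cross-linked. In the lung they lie in the airway wall, around vessels and beneath the pleura, and their mediators contract smooth muscle and make vessels leak. The 8 genes described here are Hdc (histidine decarboxylase, which forms histamine), the granule proteases Cpa3, Tpsab1, Tpsb2 and Cma1, the IgE receptor subunits Fcer1a (alpha, which binds IgE) and Ms4a2 (beta, which amplifies the signal), and Ccl11 (eotaxin, a chemokine that draws eosinophils, cells of type 2 immunity). They were chosen by gene symbol, with earlier results of these data known. They are measured by 9 of the 15866 probe sets on the array, 2 of them for Ms4a2. None of the 9 probe sets is annotated to more than 1 gene.

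Lung RNA was hybridised to 16 arrays, 4 biological replicates in each of 4 groups of rats: spontaneously hypertensive (SH) rats exposed to sulfur dioxide (SO2), SH rats in air, Sprague Dawley (SD) rats exposed to SO2 and SD rats in air. SH is an inbred strain with high blood pressure, SD is an outbred stock, and SO2 is an irritant gas. The labels used here give no dose, length of exposure, animal age or lung region. Values are linear intensities, called signals, as deposited. Differences are on the log2(signal + 16) scale, which understates those of dim probe sets, with a standard error (SE) and, where given, a 95% interval.

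Genes of lung epithelium were bright. The surfactant gene Sftpc averaged 29081, 25301, 30868 and 27925 and the club cell gene Scgb1a1 averaged 25812, 23762, 27975 and 26124 in SH SO2, SH air, SD SO2 and SD air. Eosinophil markers were dim, with 3 of 6 on the array and 0 past the filter on low signal. Replicate numbers used here follow the order of the sample titles within each group, and the labels give the group. The array labelled SD air that is replicate 2 in this order had a signal of 693.8 for Terf2ip. The level of this gene separates these strains: the remaining SD air arrays read 1982 to 2363 and the SH arrays 276.2 to 733.2. Fits that omit that array called no member either, and the main values from them stand beside the results. The 10th percentile of signal, used here as a measure of background, ran from 17 to 26.8 in SH SO2, 17.6 to 21.1 in SH air, 17.8 to 25.5 in SD SO2 and 17.4 to 24.3 in SD air arrays. The actin 3'/5' ratio, a measure of RNA breakdown, ran from 1.29 to 3.12, 1.49 to 2.36, 1.47 to 2.94 and 1.4 to 1.76 in the same groups.

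Only 4 of the 9 probe sets, those of Hdc, Cpa3, Tpsb2 and Ccl11, passed the filter, which removed the dimmest 30% of probe sets (mean signal under 116.8). Mean signals over all 16 arrays were 227.7 for Hdc, 223.9 for Cpa3, 168.1 for Tpsb2 and 421.4 for Ccl11. The others averaged 89.5 (Fcer1a), 74.39 and 55.43 (Ms4a2), 38.92 (Tpsab1) and 21.72 (Cma1). The chymase Cma1 lay under its array's own 10th percentile on 12 of 16 arrays. Because lung RNA comes from many cell types, fewer mast cells and less RNA per cell cannot be told apart.

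Promoter sequence places the granule genes in the genome and is shown for the tested mast cell genes that have an entry in the RefSeq-derived table of assembly GRCr8, with the neighbouring tryptase gene Tpsab1 for comparison. Each line is the 150 bases before the annotated start, 5' to 3' on the gene's strand, with GATAA or its reverse complement TTATC in capitals; GATAA is a core of the motif bound by GATA factors, among them Gata2 of mast cells. The stretches lie at chr3:134318705-134318854 (minus strand), chr2:104673238-104673387 (minus), chr10:14886160-14886309 (plus) and chr10:14867303-14867452 (minus).
Hdc: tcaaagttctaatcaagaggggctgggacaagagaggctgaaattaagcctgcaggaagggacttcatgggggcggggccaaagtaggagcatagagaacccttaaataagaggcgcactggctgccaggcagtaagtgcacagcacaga
Cpa3: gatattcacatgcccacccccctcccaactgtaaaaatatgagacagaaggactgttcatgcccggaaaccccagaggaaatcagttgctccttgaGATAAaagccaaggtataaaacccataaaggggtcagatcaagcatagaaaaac
Tpsb2: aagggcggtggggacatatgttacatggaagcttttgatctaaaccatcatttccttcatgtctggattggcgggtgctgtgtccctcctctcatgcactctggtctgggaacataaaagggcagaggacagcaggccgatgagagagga
Tpsab1: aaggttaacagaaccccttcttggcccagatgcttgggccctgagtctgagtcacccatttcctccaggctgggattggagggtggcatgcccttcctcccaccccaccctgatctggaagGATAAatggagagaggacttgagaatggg
GATAA begins at base -54 of Cpa3 and at base -29 of Tpsab1, counted back from the start. Hdc and Tpsb2 have neither form in this window. Of the 6 members with an entry, 4 hold a match (Cma1 at -63 and Fcer1a, as TTATC, at -93, are the other two), and 14.2% of all 33469 promoters of the same length hold it. A match describes the letters and was not tested for binding.

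Exposure to SO2 left no member past the threshold (adjusted p under 0.05) in either strain, and the same held for every other probe set: limma called 0 of 11107 in SH and 0 of 11107 in SD rats, a background of 0%. At an unadjusted p under 0.05, 4.78% of probe sets in SH and 8.29% in SD rats were reached. Ccl11 had the smallest p of the 4 tested members in each strain. Hdc and Cpa3 had higher means with SO2 in both strains (unadjusted p from 0.101 to 0.629 by limma), and the tryptase Tpsb2 pointed in opposite directions. The median over the 4 tested members was 0.39 in SH and 0.27 in SD rats, against 0.017 over all probe sets in each strain. These medians cover the members bright enough to be tested and not all 8 genes. The members were chosen with earlier results of these data known, so the medians are description and carry no test.

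Ccl11 measured 525.1, 517.3, 674.3 and 454.7 on the SH SO2 arrays, against 392.5, 433.3, 397.5 and 305.3 on the SH air arrays. All 4 SO2 arrays lay above all 4 air arrays, which was also so for 2.14% of probe sets. The difference was 0.49 (SE 0.202, unadjusted p = 0.0261, adjusted p = 0.95 by limma). In SD rats Ccl11 measured 486.2, 425.9, 264.5 and 609.9 with SO2, against 248.5, 334.6, 302.5 and 369.9 in air, and the groups overlapped because SD SO2 replicate 3 lay within the air range. The SD difference was 0.44 (SE 0.202, unadjusted p = 0.0403, adjusted p = 0.588 by limma), and 0.48 without the array labelled SD air replicate 2. It was 0.28 without SD SO2 replicate 4 and 0.66 without SD SO2 replicate 3.

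Averaged over the strains, Ccl11 was 0.46 higher with SO2 (SE 0.143, 95% interval 0.17 to 0.76, unadjusted p = 0.00407), which ranked 117th of 11107 probe sets by p. The adjusted p was 0.381 by limma (range 0.136 to 0.739 over 26 settings), so this did not pass, and limma called 0% of probe sets here too. Ccl11 was 1 of 28 probe sets (0.252%) with an unadjusted p under 0.05 and a higher signal with SO2 in both strains. Because the members were chosen with earlier results of these data known, this rank and this count are description only. The difference between the strains in this effect was 0.042 (SE 0.285, interval -0.55 to 0.64, adjusted p = 0.998), an interval wide enough to hold effects of either sign. Ccl11 signals moved with array background over the 16 arrays (Pearson r = 0.631, permutation p = 0.00972, adjusted p = 0.0583 over 18 relations; Spearman rho = 0.552, adjusted p = 0.175). Without the 2 arrays of most extreme background r was 0.522. With background and actin ratio as covariates the Ccl11 effect was 0.29 in SH and 0.35 in SD rats, and 0.32 averaged over both (adjusted p = 1, 0.586 and 0.739 by limma).

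**Figure D1:**
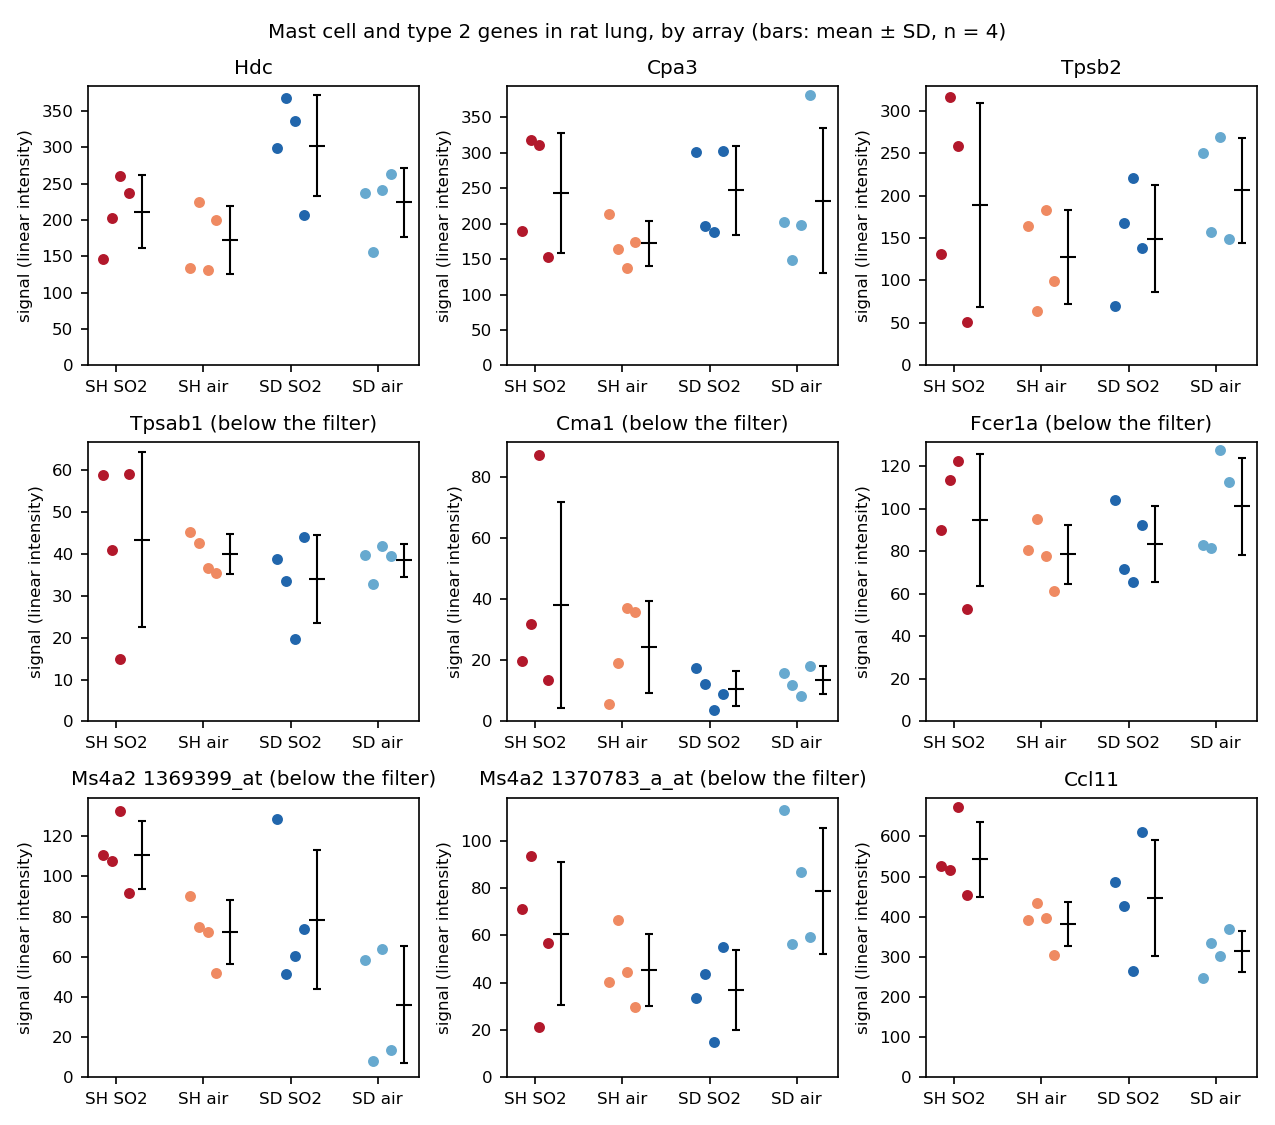
Signal (linear intensity) of the 9 probe sets on each of the 16 arrays, as points by group, with the mean and SD (n = 4) beside them. Ccl11 separates SH SO2 (454.7 to 674.3) from SH air (305.3 to 433.3), and the 2 Ms4a2 probe sets order the SD groups in opposite ways.

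Hdc measured 145.7, 203.4, 260.3 and 236.8 with SO2 and 134, 224.3, 131.9 and 200.2 in air in SH rats. In SD rats it measured 299.4, 367.5, 335.7 and 206.2 with SO2 and 237.5, 155.8, 240.9 and 263.3 in air. Within each strain the ranges overlapped, with SD SO2 replicate 4 as low as the SD air arrays. The differences were 0.28 (SE 0.232, adjusted p = 0.95) in SH and 0.40 (SE 0.232, adjusted p = 0.677) in SD rats, the SD value 0.25 without the array labelled SD air replicate 2. Averaged over the strains the Hdc difference was 0.34 (interval -0.0046 to 0.68, adjusted p = 0.596 by limma), and 0.26 on omission of that array. For Hdc the relation to background did not pass (r = 0.0686, permutation p = 0.802 over 16 arrays; Spearman rho = 0.122, permutation p = 0.654).

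Cpa3, the mast cell carboxypeptidase, measured 190, 318.7, 311.1 and 153.4 with SO2, against 213.8, 163.8, 137.7 and 174.8 in air, in SH rats (0.41, SE 0.271, adjusted p = 0.95). Its SD signals were 301.2, 197.3, 188.4 and 302.4 with SO2, against 201.7, 148.2, 198.1 and 381.7 in air (0.13, SE 0.271, adjusted p = 0.933). In SH rats 2 SO2 arrays lay above the air range and the other two within it; in SD rats the highest value of all was an air array. With the array labelled SD air replicate 2 left out, the SD difference turned to -0.039 (adjusted p = 0.983). Averaged over the strains the difference was 0.27 (SE 0.192, adjusted p = 0.711 by limma), or 0.19 with it omitted.

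Cpa3 closely followed the arrays' 10th percentile of signal, the measure of background used here. Pearson r between its log2 signal and the log2 10th percentile was 0.884 over 16 arrays (permutation p = 2e-05, adjusted p = 0.00036 over 18 relations), and Spearman rho was 0.887 (adjusted p = 0.00072). It stayed at 0.857 without the 2 arrays of most extreme background, at 0.901 after each group's mean was subtracted, and at 0.906 in the 8 SH and 0.924 in the 8 SD arrays. Of all 11107 probe sets tested, 8 had a higher correlation with background than Cpa3, and the median over all was 0.0598. Array medians largely rose with the 10th percentile, from 251.9 at 17 (SH SO2 replicate 4) to 281.8 at 26.8 (SH SO2 replicate 2). Trimmed means, in contrast, were scaled to 499.419 to 499.884 on every array. The measure therefore does not separate background from a wider rise of the low and middle signals of an array. Fcer1a, which failed the filter, was related to background too (r = 0.749, permutation p = 0.001, adjusted p = 0.009; rho = 0.751, adjusted p = 0.0125; r = 0.779 without those 2 arrays). With background and actin ratio as covariates the SO2 difference of Cpa3 was 0.18 for SH and 0.094 for SD rats (adjusted p = 1 and 0.89 by limma). For none of the 9 probe sets did the relation to the actin ratio pass (adjusted p from 0.236 to 0.908 for Pearson's r, each by permutation).

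**Figure D2:**
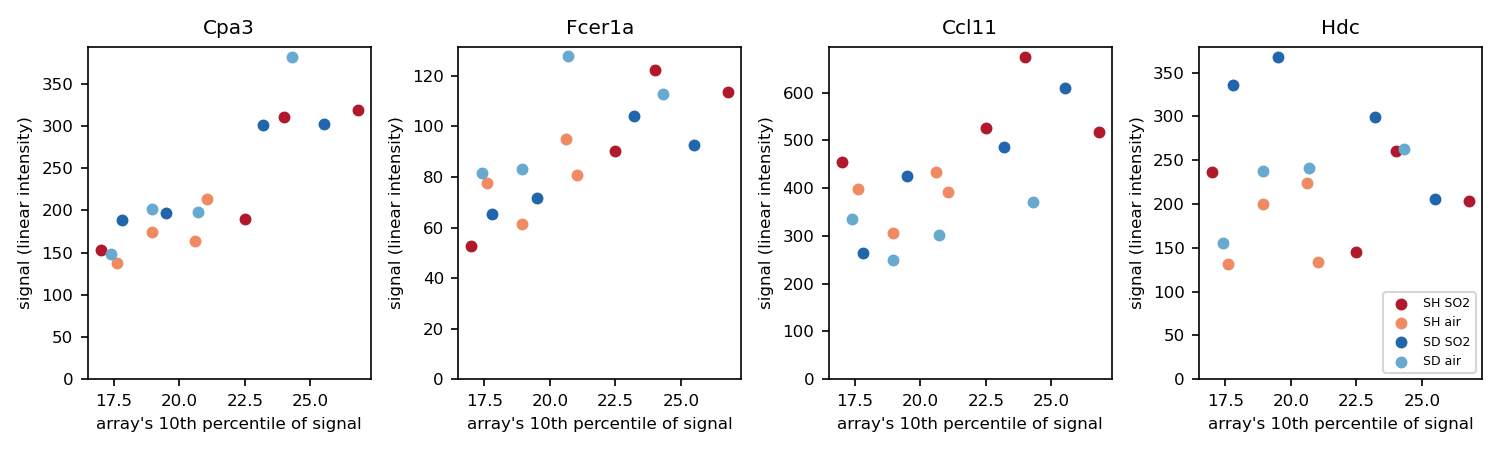
Signal (linear intensity) of Cpa3, Fcer1a, Ccl11 and Hdc on each of the 16 arrays against that array's 10th percentile of signal, coloured by group. Cpa3 climbs with background (r = 0.884 on log2 values), Ccl11 less closely (0.631), and Hdc shows little relation (0.0686).

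Of the 4 members that passed the filter, the tryptase Tpsb2 had the largest SE on the log2(signal + 16) scale. It measured 131.6, 315.7, 258.4 and 51 with SO2 and 164.2, 64.5, 182.5 and 99.3 in air in SH rats (0.36, SE 0.429, adjusted p = 0.967). That difference was 0.047 without SH SO2 replicate 2 and 0.82 without SH SO2 replicate 4. In SD rats it measured 69.7, 168.1, 220.8 and 138.5 with SO2 and 250.5, 157.2, 268.5 and 149 in air (-0.48, SE 0.429, adjusted p = 0.795; -0.58 with SD air replicate 2 omitted). Every pair of groups overlapped. The difference between the strains in the SO2 effect was 0.84 (SE 0.607, interval -0.43 to 2.10, adjusted p = 0.984 by limma), 0.94 with SD air replicate 2 omitted, 0.52 without SH SO2 replicate 2, and 1.29 without SH SO2 replicate 4, the array with the lowest signal of Tpsb2. The other tryptase, Tpsab1, stayed between 14.9 and 59 on all arrays and averaged 43.4 ± 20.8 in SH SO2, 39.95 ± 4.78 in SH air, 33.9 ± 10.5 in SD SO2 and 38.42 ± 3.9 in SD air (SD, n = 4 each). Tpsab1 and Tpsb2 are related genes, so cross-hybridisation between their probe sets and each gene's own signal cannot be told apart. The chymase Cma1 averaged 38.17 ± 33.7 in SH SO2 and 24.45 ± 15 in SH air, and 10.7 ± 5.67 in SD SO2 and 13.55 ± 4.45 in SD air, at or near background in all 4 groups.

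Of the IgE receptor subunits, Fcer1a averaged 94.7 ± 31.1 in SH SO2 and 78.65 ± 13.9 in SH air, and 83.4 ± 18 in SD SO2 and 101.2 ± 22.7 in SD air (SD, n = 4 each). In a fit without the filter its differences were 0.19 in SH and -0.24 in SD rats (adjusted p = 0.972 and 0.901 by limma). Ms4a2 gave conflicting readings. Its first probe set measured 110.6, 107.5, 132.7 and 91.8 in SH SO2 and 90.3, 74.9, 72.2 and 51.8 in SH air, without overlap, as did 2.14% of the probe sets tested in that direction. In SD rats the same probe set measured 128.3, 51.4, 60.5 and 73.6 with SO2 and 58.6, 8.3, 64.1 and 13.7 in air, where 2 air arrays lay under their array's 10th percentile. Its differences in the fit without the filter were 0.53 in SH and 0.99 in SD rats (adjusted p = 0.958 and 0.582), the SD value 0.69 with SD air replicate 2 omitted.

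The second Ms4a2 probe set went the other way in SD rats, with 33.7, 43.7, 15.1 and 55.1 with SO2 and 113.1, 56.2, 86.8 and 59.2 in air. All 4 SO2 arrays lay below all 4 air arrays, as did those of 1.47% of the probe sets tested, with a difference of -0.86 (adjusted p = 0.629). In SH rats it averaged 60.7 ± 30.3 with SO2 and 45.3 ± 15.3 in air (0.25, adjusted p = 0.972). The 2 probe sets of this gene disagreed in the sign of the SD difference, so no direction is given for Ms4a2.

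**Figure D3:**
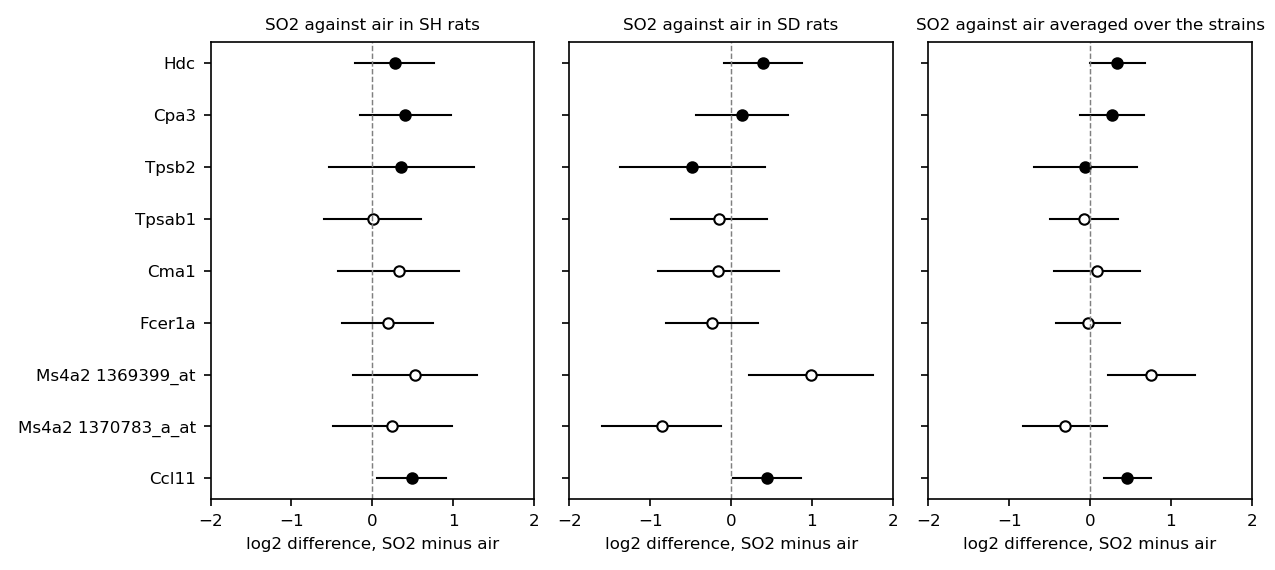
Differences between SO2 and air on the log2(signal + 16) scale for the 9 probe sets (the first Ms4a2 probe set is the upper of its rows), in SH rats, in SD rats and averaged over the strains, with 95% intervals as lines. Filled points are the probe sets that passed the filter and open points come from a fit without it; Ccl11 averaged 0.46 (0.17 to 0.76), and the Ms4a2 probe sets stand at 0.99 and -0.86 in SD rats.

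Between the strains, Hdc had the lowest p averaged over the exposures of the 4 members that passed the filter. Averaged over the exposures its signal was lower in SH than in SD rats by a difference of -0.42 (SE 0.164, interval -0.76 to -0.079, unadjusted p = 0.0185), which did not pass (adjusted p = 0.27 by limma). The means were 211.6 ± 49.7 in SH SO2 and 302.2 ± 69.8 in SD SO2 (-0.48, adjusted p = 0.491), and 172.6 ± 46.8 in SH air and 224.4 ± 47.1 in SD air (-0.36, adjusted p = 0.848; SD, n = 4 each). With the array labelled SD air replicate 2 left out, the averaged value was -0.50 (adjusted p = 0.135) and that in air -0.51 (adjusted p = 0.491). In order of mean, Hdc stood highest in SD SO2, then SD air, SH SO2 and SH air, and neighbouring groups overlapped.

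Ccl11 went the other way, with 542.9 ± 93.1 in SH SO2 and 446.6 ± 144 in SD SO2, and 382.1 ± 54.4 in SH air and 313.9 ± 51.5 in SD air (averaged difference 0.30, SE 0.143, adjusted p = 0.431). Cpa3 averaged 243.3 ± 84.1 in SH SO2 and 247.3 ± 63 in SD SO2, and 172.5 ± 31.6 in SH air and 232.4 ± 102 in SD air (averaged difference -0.19, adjusted p = 0.787). That averaged value was -0.065 without SD air replicate 4 and -0.28 without SD air replicate 2, and the difference in air, -0.33 with all arrays, was -0.079 and -0.50. For Tpsb2 the means were 189.2 ± 120 and 149.3 ± 63 in SO2 and 127.6 ± 55.2 and 206.3 ± 62 in air, SH before SD (averaged difference -0.26, SE 0.303, unadjusted p = 0.405 by limma). No member was called in any comparison of the strains, where limma called 0.819% of probe sets in SO2, 0% in air and 1.55% averaged over the exposures. In the fit without the filter the lowest adjusted p of the dim probe sets between strains was 0.299, for the first Ms4a2 probe set (averaged difference 0.71, unadjusted p = 0.0136), and 0.402 (0.56) with SD air replicate 2 omitted. In SD air this probe set lay under the array's own 10th percentile on 2 arrays. The second Ms4a2 probe set had an averaged difference of -0.062 (adjusted p = 0.976 by limma). In air the 2 probe sets differed in sign (0.94 and -0.62), so no direction between strains is given for Ms4a2. By adjusted p Cma1 came next (averaged difference 0.62, unadjusted p = 0.024, adjusted p = 0.379). It lay under the array's own 10th percentile on 12 of 16 arrays, among them every array of SD rats.

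The members did not move as a block. Over the 36 pairs of probe sets, the median Pearson r of log2 signals over 16 arrays was 0.0698, 15 pairs were below 0, and 3 were above 0.5. The 2 tryptase probe sets had r = -0.464, the lowest of all, and the 2 Ms4a2 probe sets -0.117. The highest values were 0.662 for Tpsab1 with the second Ms4a2 probe set, both dim, and 0.654 for Cpa3 with Fcer1a, the pair that followed background. These correlations describe 16 arrays that share 4 groups and carry no test.

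**Figure D4:**
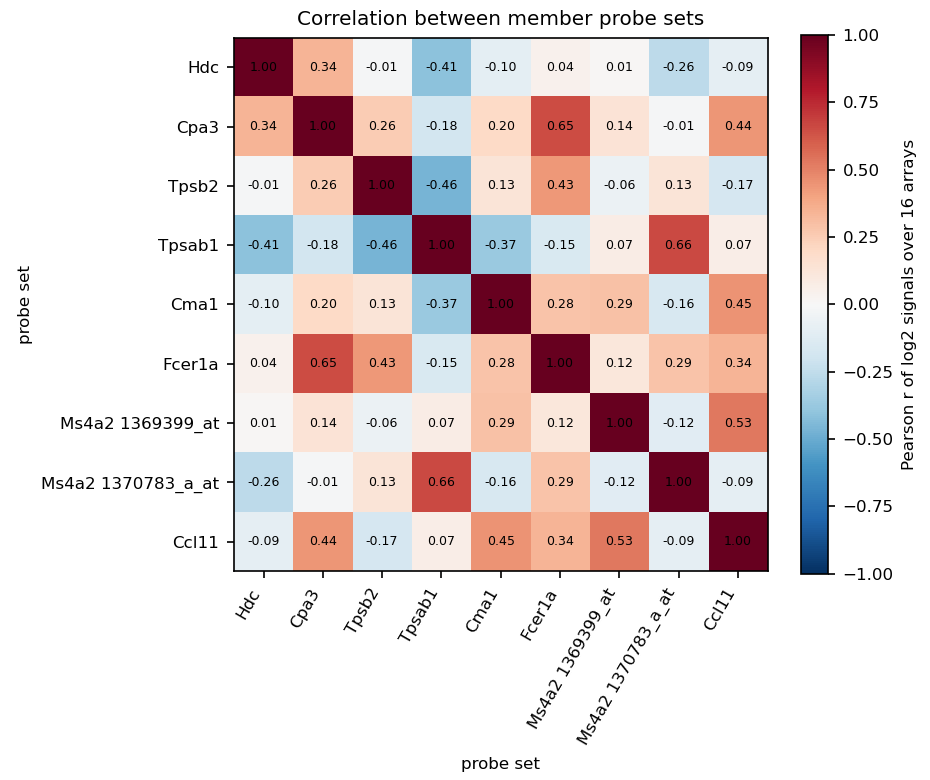
Pearson r of log2 signals over the 16 arrays between the 9 probe sets, on a scale from -1 to 1. The 2 Ms4a2 probe sets (-0.117) and the 2 tryptase probe sets (-0.464) do not track each other, and Cpa3 with Fcer1a (0.654) is among the few high pairs.

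The genes most like the mast cell members were sought by correlation with the mean of standardised Hdc, Cpa3 and Tpsb2 over 16 arrays, among 9358 other probe sets with a gene symbol. The 10 highest were Slc7a10 (r = 0.835), Tmem151a (0.83), Mthfd1 (0.821), Lyar (0.817), Ep300 (0.816), Tgfa (0.807), Mme (0.807), Slc25a48 (0.791), Arc (0.786) and Dnaja3 (0.783). After subtraction of each group's mean they kept r between 0.686 and 0.864. Kit, the receptor that mast cells need for survival, was not among these 10, and its own r is not given here. That absence does not mean that Kit moved apart from the members. In each group the array with the highest Kit signal was also the array with the highest Cpa3 signal. All 10 genes had a positive r with array background, from 0.311 (Mme) to 0.83 (Ep300). The median over all 11107 probe sets tested was 0.0598. Cpa3, which is part of the mean used here, had r = 0.884 with background. The part of background in this list of genes was not tested.

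Other mast cell genes gave no call either. Of 25 listed, 16 were on the array and 8 were tested, with 0 called in each comparison (1 in SH and 0 in SD rats at an unadjusted p under 0.05) and medians of 0.083 in SH and -0.01 in SD rats for SO2. Kit averaged 307 ± 134 with SO2 and 247.7 ± 53.5 in air in SH rats, and 444.1 ± 143 with SO2 and 338.2 ± 143 in air in SD rats (averaged difference 0.31, SE 0.218, adjusted p = 0.711). Srgn, the proteoglycan core of mast cell and other leukocyte granules, measured 2618, 2891, 2762 and 2691 in SH SO2 and 2134, 2243, 2578 and 2055 in SH air, without overlap, as did 2.14% of probe sets in that direction (0.29, SE 0.103, adjusted p = 0.95). In SD rats Srgn averaged 2158 ± 153 with SO2 and 2252 ± 251 in air. Slc18a2, the transporter that loads histamine into granules, had an averaged difference of 0.18 (adjusted p = 0.711 for Kit and 0.748 for Slc18a2 by limma).

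Genes that relay the IgE receptor signal mostly passed the filter, with 12 of 17 tested and 0 called for SO2 (1 in SH and 2 in SD rats at an unadjusted p under 0.05). Medians were -0.014 in SH and 0.061 in SD rats. Syk, the kinase that the receptor recruits, measured 549.7, 582.5, 573.5 and 500.5 in SD SO2 and 416.9, 419.3, 440.5 and 460.4 in SD air, without overlap, as did 2.07% of probe sets in that direction (0.33, SE 0.111, adjusted p = 0.471). In SH rats Syk averaged 470.4 ± 38.5 with SO2 and 487.6 ± 33.5 in air. Lat, an adaptor shared with T cells, had an averaged difference of 0.32 (SE 0.11, adjusted p = 0.438 by limma). Gab2, another adaptor, had 0.87 in SH rats (SE 0.407, adjusted p = 0.95 by limma), with overlapping groups and a range of 0.45 to 1.23 over the settings. In SD rats its difference was -0.40 (adjusted p = 0.83 by limma). The summed signal of 8 T cell markers ran from 1770 to 2423 in SH SO2, 1739 to 2209 in SH air, 1824 to 2760 in SD SO2 and 1686 to 2521 in SD air, and its part in these values was not tested.

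Of 19 genes of histamine and lipid mediator handling, 9 were tested and 0 were called for SO2 (0 in each strain at an unadjusted p under 0.05), with medians of 0.035 in SH and 0.077 in SD rats. The single call of all 5 lists was a strain difference in this one. Ltc4s, the enzyme that makes leukotriene C4, was lower in SH rats: 276.2, 317.2, 266.3 and 250.4 in SH SO2 against 419.4, 375.7, 367.4 and 391.8 in SD SO2, and 305.9, 280.1, 255.9 and 307.4 in SH air against 314.1, 311.7, 441.8 and 424.8 in SD air. SH and SD arrays did not overlap in either exposure, SH lying lower, as did 2.77% of probe sets in SO2 and 2.08% in air. Averaged over the exposures Ltc4s fell by 0.41 in SH relative to SD rats on the log2 scale (SE 0.101, adjusted p = 0.0472 by limma), beside 1.55% of probe sets called. The call was narrow: it held in 11 of 26 settings, with adjusted p from 0.0226, without the array labelled SD air replicate 2, to 0.114, without SH air replicate 3, and 0.0956 with the replicate number as a block.

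Type 2 cytokines, receptors and targets had 11 of 28 genes tested and 0 called (1 in SH and 2 in SD rats at an unadjusted p under 0.05), with medians of 0.048 in SH and 0.26 in SD rats for SO2. Clca1, a secreted protein of goblet cells induced by interleukin-13, measured 1190, 1897, 382.3 and 491.5 in SD SO2 and 215.2, 125, 492.4 and 331.2 in SD air. Of the SD SO2 arrays, 2 lay far above the air range and the other two within it (1.59, SE 0.514, unadjusted p = 0.00599, adjusted p = 0.458), and the difference was 1.26 without the array labelled SD air replicate 2. In SH rats Clca1 averaged 224.5 ± 98.4 with SO2 and 164.5 ± 119 in air (0.54, adjusted p = 0.96). Between strains it differed by -1.37 averaged over the exposures (adjusted p = 0.0636 by limma), which did not pass but did in 4 of 26 settings, with an adjusted p of 0.0248 when the array labelled SD air replicate 2 was left out. Arg1 (-0.39, SE 0.152) and Retnla (-1.08, SE 0.634), both type 2 markers of macrophages in mice, had lower means with SO2 in SH rats (adjusted p = 0.95 each). In SD rats the differences were 0.044 for Arg1 and 0.35 for Retnla. Cd68, the 1 macrophage marker of 6 on the array, averaged 1142 with SO2 and 1471 in air in SH rats (-0.37) and 1415 and 1442 in SD rats (0.0099), and its part in these values was not tested.

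Il33, an epithelial alarmin that activates mast cells, averaged 2761 ± 254 in SH SO2 and 2707 ± 577 in SH air, and 3297 ± 241 in SD SO2 and 2892 ± 245 in SD air (averaged difference 0.12, adjusted p = 0.739 by limma). Of 19 eosinophil and basophil genes, 9 were on the array, 4 were tested and 0 were called by limma (0 in each strain at an unadjusted p under 0.05). The eosinophil markers on the array were Prg2, Ccr3 and Il5ra, with means over all arrays of 84.09, 103.9 and 64.69, all under the filter. Their summed signal ran from 224.7 to 316.2 in SH SO2, 197.7 to 334.7 in SH air, 182.4 to 329.8 in SD SO2 and 139.4 to 316.7 in SD air, with the groups overlapping, beside the Ccl11 values given above.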

How the data were processed

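Lung RNA from 16 rats was measured on 16 arrays. The deposited table holds 1 linear intensity per probe set and array; the submitters' processing notes name GCOS, with version and algorithm not given in the sources used here. Trimmed means (2% off each end) ran from 499.419 to 499.884 over the arrays, and that scaling was left as it was. Of 15923 probe sets, 57 controls were left out. Platform symbols of all 8 members matched a RefSeq table of assembly GRCr8 by Entrez identifier.

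Tests used limma 3.58.1 in R 4.3.3 on log2(intensity + 16) with 1 mean per group, all 16 arrays, 12 residual degrees of freedom, eBayes with a trend, and Benjamini-Hochberg adjustment over the 11107 probe sets left after the 30% with the lowest mean were removed. Dim members were read from a fit without that filter. Relations to array quality used 100000 permutations, two-sided. The test was also run on simulated data, drawn independently for each array and fitted without the filter. That run does not cover the array background shared by probe sets described above. The rule for named genes took every member probe set and, from each other list, called genes and up to 3 of smallest p in each SO2 comparison, of which the text gives some. The members and lists were chosen with earlier results of these data known. Replicate numbers did not pair the arrays. The probe set of highest mean stood for each gene that is no member. Figures used matplotlib 3.10.9.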

Additional observations from a re-analysis of the deposited data

Results flagged for a closer look

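Array SH SO2 replicate 4 stood apart from its group for 2 genes of the wider lists. Csf2rb, the shared beta chain of the interleukin-3 and interleukin-5 receptors, measured 88.6, while replicates 1 to 3 lay at 219.2 to 239.8. Cysltr1, a leukotriene receptor, measured 60.3 against 172.1 to 203. Both gaps to the nearest array exceeded Dixon's 95% limit for 4 samples. Chance would flag about 1 in 20 of the 152 groups examined, and these 2 were the total; none of the 36 groups of member values was flagged. The same array had the lowest signals of its group for Cpa3 (153.4), Tpsb2 (51) and Fcer1a (52.7) and the lowest background (10th percentile 17).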

How the results depend on the processing

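The number of arrays and dim signal limit these results: 5 of the 9 member probe sets fell below the filter. In the sample titles all SH air arrays come before all other arrays. Order and exposure therefore cannot be told apart in SH rats, nor can order and strain in air. No tested member was called in the 7 comparisons under the alternatives that kept it, all 25 for Ccl11 and those other than the removal of the lowest 50% for Hdc, Cpa3 and Tpsb2 (lowest adjusted p 0.135). The 5 dim probe sets were fitted only without the filter, with all arrays and, added after the data were seen, without SD air replicate 2, where none was called and the strain difference of Tpsab1 in air turned to -0.013 (0.039 with all arrays). Of 679 recomputed member differences, 21 turned sign, all of them for 6 results near 0. By setting, the Ccl11 difference between strains in the SO2 effect was -0.063 with background and actin ratio as covariates. Leaving out single arrays gave ranges of -0.18 to 0.21 for that value, -0.29 to 0.032 for the same difference of Hdc, -0.21 to 0.17 for Tpsb2 with SO2 averaged over the strains, -0.15 to 0.62 for Tpsb2 in SH against SD rats in SO2, -0.19 to 0.13 for Cpa3 in SH against SD rats in SO2, and -0.039 to 0.39 for Cpa3 with SO2 in SD rats. The cause was not tested.

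Counts over the whole table moved more. SO2 in SH rats gave 0 to 1 calls, SO2 in SD rats 0 to 3 and SO2 averaged 0 to 11 when single arrays were left out, the 11 without SD air replicate 4. SH against SD rats in air gave 0 calls, 5 with an offset of 64, and 90 without the array labelled SD air replicate 2. In SO2 the strain count was 91, 138 with the quality covariates and 51 to 116 without single arrays. Averaged over the exposures it was 172, and 282 without the array labelled SD air replicate 2.

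With the replicate number as a block, the pairing check gave correlations of -0.428 to 0.153 between same-numbered arrays, and 1 of 16 arrays correlated best with its own number, so the numbers do not pair. The blocked fit called 0 members in each comparison and 0, 0, 0, 0, 88, 0 and 161 probe sets in all, for SO2 in SH, in SD, averaged and their difference, then SH against SD in SO2, in air and averaged. The numbers only order the arrays within a group, so this block stands for no known pairing or batch. Ltc4s was not called in the blocked fit (adjusted p = 0.0956 by limma). Nor was it called with no filter on dim probe sets (0.0877).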

Other observations

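The companions of single members are given by the 3 highest correlations over 16 arrays, a choice made after the values were seen. Cpa3 was closest to Lin7c (r = 0.946), Bcl2l10 (0.939) and Arfgap2 (0.911), and these companions had r of 0.833, 0.891 and 0.856 with array background. Ccl11 was closest to Lysmd1 (0.847), LOC102549726 (0.83) and Dusp3 (0.823), with r of 0.431, 0.631 and 0.515 to background. Hdc was closest to Setsip (0.841), Pstpip1 (0.804), an adaptor of leukocytes, and Gramd2b (0.803), with r of 0.161, 0.238 and 0.495. Tpsb2 was closest to Lhfpl6 (0.749), Uvrag (0.748) and Smad6 (0.74), with r of -0.0949, 0.117 and -0.0229. These values carry no test.

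Mitf, a transcription factor that mast cells and pigment cells need, spread widely in SD SO2, with 49.1, 235.3, 182.6 and 448.4, against 275.5, 249.1, 230.1 and 245.7 in SD air (-0.43, SE 0.356, adjusted p = 0.774 by limma), a value that ran from -0.84 to 0.10 over the settings. Averaged over the exposures Mitf was 0.74 higher in SH than in SD rats (SE 0.252, unadjusted p = 0.00872, adjusted p = 0.197 by limma). This did not pass, but did in 1 of 26 settings (adjusted p = 0.026 by limma).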
